A study of Homo sapiens with 2 samples.

Results

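Aldo-keto reductases and NRF2-linked redox enzymes are represented here by 10 genes, taken by symbol from a table of 58735 genes: AKR1A1, AKR1B1, AKR1B10, AKR1C1, AKR1C2, AKR1C3, AKR7A2, NQO1, SRXN1 and TXNRD1. They were chosen by enzyme family and on their measured FPKM in shJAM3 and shControl, with earlier results of these data known, so their differences between the libraries are given as a description. RNA was measured by poly(A)-selected sequencing in A2780, an established human ovarian cancer cell line. The compared groups were A2780 cells labelled shJAM3, made for stable knockdown of JAM3, a cell-contact adhesion gene, and A2780 cells labelled shControl, named wild type in the labels and an empty-vector control in the design text. Each group had 1 library, so no difference below has a replicate check and no test of the conditions was possible. The design text speaks of siRNA where the titles carry the prefix sh, and the number of clones behind each line is not stated.

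Aldo-keto reductases are NADPH-dependent enzymes that turn aldehydes and ketones into alcohols. NRF2, encoded by NFE2L2, is a transcription factor that KEAP1 holds low by directing it to degradation. When released, it pairs with small MAF proteins at antioxidant response elements (AREs), and several aldo-keto reductases, NQO1, SRXN1 and TXNRD1 are known among its targets. In ovarian and other steroid-responsive tissue the AKR1C enzymes are known for setting local levels of progesterone, androgens and prostaglandins.

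Near their start sites the 3 AKR1C genes carry related sequence, and these windows are shown because the genes also lay on the same side of the comparison. Each window runs from 250 bases before to 50 bases after 1 RefSeq start per gene (GRCh38.p14). It is written 5′ to 3′ on the gene's strand, with an inverted CCAAT box (ATTGG) in capitals. For AKR1C2 and AKR1C3 that start lies well inside the annotated span of the gene. Which starts these cells used was not measured, and a link between this sequence and the levels was not tested. The windows are chr10:4963165-4963464 on the plus strand for AKR1C1, chr10:5003808-5004107 on the minus strand for AKR1C2 and chr10:5048531-5048830 on the plus strand for AKR1C3.
AKR1C1: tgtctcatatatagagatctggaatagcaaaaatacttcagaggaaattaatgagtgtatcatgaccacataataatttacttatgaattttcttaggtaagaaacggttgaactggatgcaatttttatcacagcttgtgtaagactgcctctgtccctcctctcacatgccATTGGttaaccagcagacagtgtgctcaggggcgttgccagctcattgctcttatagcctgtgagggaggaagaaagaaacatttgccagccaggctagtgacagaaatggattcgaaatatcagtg
AKR1C2: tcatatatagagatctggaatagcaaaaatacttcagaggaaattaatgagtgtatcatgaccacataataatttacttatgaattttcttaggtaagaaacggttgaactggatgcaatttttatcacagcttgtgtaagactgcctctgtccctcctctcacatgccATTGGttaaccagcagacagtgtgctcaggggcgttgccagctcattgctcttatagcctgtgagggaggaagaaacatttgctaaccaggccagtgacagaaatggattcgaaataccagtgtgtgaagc
AKR1C3: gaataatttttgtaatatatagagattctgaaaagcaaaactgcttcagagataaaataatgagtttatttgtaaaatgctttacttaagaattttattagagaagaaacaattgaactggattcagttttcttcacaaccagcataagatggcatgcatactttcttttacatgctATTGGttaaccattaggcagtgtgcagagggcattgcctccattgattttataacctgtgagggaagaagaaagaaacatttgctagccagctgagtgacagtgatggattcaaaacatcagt

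The AKR1C1 and AKR1C2 windows were 93.5% identical in a global alignment and shared an unbroken run of 245 bases that contains the CCAAT box. AKR1C3 was 73.5% identical to AKR1C1 and 69.4% to AKR1C2. CCAAT was searched on both strands and also lies in the AKR1B1 and TXNRD1 windows, so 5 of the 9 members with a window hold it, as do 35.7% of 27305 RefSeq promoter windows of this length. The ARE core TGACNNNGC, searched on both strands, was absent from these letters in all 3 AKR1C windows, and 13.6% of all windows hold it. The AP-1 site TGAGTCA, which can overlap some AREs, was absent from the windows of all 9 members with a window, against 4.92% of all windows holding it. AKR1B10 had no window in the table.

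The ARE core was found in 2 of the 9 windows, those of TXNRD1 and AKR7A2. TXNRD1 is shown as an example (chr12:104215529-104215828, plus strand), with only its ARE cores, on either strand, in capitals.
TXNRD1: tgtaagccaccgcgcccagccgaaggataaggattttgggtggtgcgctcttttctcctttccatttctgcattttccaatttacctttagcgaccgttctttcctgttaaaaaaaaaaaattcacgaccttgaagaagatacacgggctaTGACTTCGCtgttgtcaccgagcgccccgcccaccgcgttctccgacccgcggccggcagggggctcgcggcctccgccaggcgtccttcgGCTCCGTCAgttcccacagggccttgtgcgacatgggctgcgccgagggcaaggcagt
Its first core, TGACTTCGC, began 99 bases before the start, and the other lay on the opposite strand 8 bases before it. AKR7A2 held 3 cores. A match is a match of letters only, and no binding was measured. Sequence outside the windows was not searched, so a window without the core does not show that the gene lacks an ARE.

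The shJAM3 library held 16455079 fragments assigned to genes and the shControl library 15570262, recovered from the FPKM values. FPKM are fragments per kilobase of exon, scaled to library size. The sizes implied by the values were 16678451 in shJAM3 and 15361731 in shControl, which differ from these totals. Ratios below use the implied sizes. JAM3 itself was barely detected, with 14 fragments in shJAM3 and 18 in shControl, a ratio of 0.716 (0.330 to 1.52), so no difference in JAM3 was detectable. Bracketed intervals are exact 95% intervals for counting error only, and PCR copies make them too narrow. The epithelial keratins KRT8 and KRT18 were high in both libraries (153.3 and 165.2 FPKM in shJAM3, 138.6 and 144.8 in shControl), while EPCAM, KRT19 and CDH1 were at 0.904 FPKM or below in both. The ovarian tract markers PAX8, MUC16, WT1 and EMX2 were each at 1.12 FPKM or below in both libraries, with EMX2 and WT1 at 0 in shJAM3. Leukocyte, endothelial and hepatocyte markers were at or below 0.763 FPKM in shJAM3 and 2.28 in shControl, the highest being CD14, and PTPRC, ALB and APOA1 had no fragment. Of the fibroblast markers PDGFRB was at 2.99 FPKM in shJAM3 and 3.79 in shControl, and DCN and LUM had 3 fragments or fewer in each library. In such bulk RNA, fewer cells with a transcript and less of it per cell cannot be told apart.

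Of the 10 genes, 9 were measured, meaning that the mean of both libraries was 1 FPKM or more, and AKR1B10 was not. AKR1C1 (0.404 FPKM in shJAM3, 1.80 in shControl) and AKR1C2 (0.677 in shJAM3, 1.35 in shControl) passed only through shControl. Their being lower in shJAM3 is thus partly built into this filter. AKR1C1, AKR1C3 and SRXN1 were lowest in shJAM3 relative to shControl, AKR1C2, AKR1A1 and AKR1B1 were lower by a smaller factor, AKR7A2 was close to even, and TXNRD1 and NQO1 were slightly higher. On the scale log2(FPKM + 1), 7 of 9 were below 0 in shJAM3 and 2 above, where 50.6% of measured protein-coding genes were below 0. By a fixed rule of size, a log2 ratio of -1 or below, 2 were at least 2-fold lower (AKR1C3 and SRXN1), where 1.41% of 10496 measured protein-coding genes and 2.1% of all 12214 measured genes were. None was at least 2-fold higher, against 0.391% and 1.3%. The median log2 ratio was -0.59 for the 9 members and -0.01 for all measured protein-coding genes. Because the members were chosen with this contrast known, nothing is read from their share against that background.

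**Figure D1:**
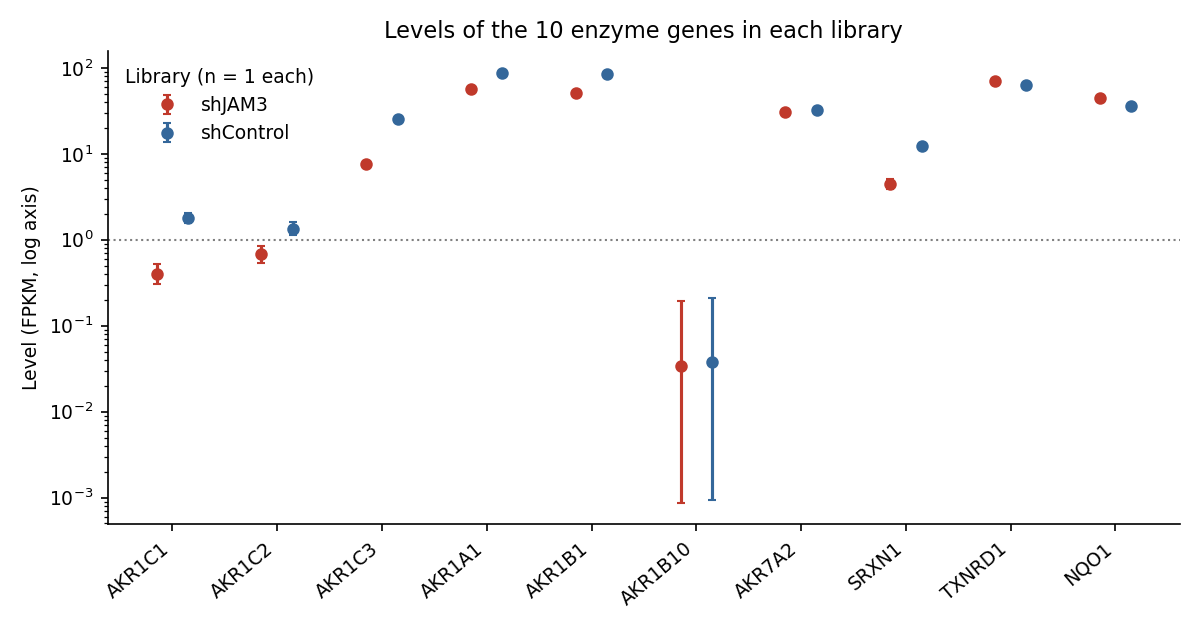
Level of each of the 10 genes in FPKM on a log axis, shJAM3 in red and shControl in blue, with exact 95% Poisson intervals for counting error and the line at 1 FPKM dotted. AKR1C3 sits at 7.63 FPKM in shJAM3 against 25.2 in shControl, while AKR1B10 rests on 1 fragment in each library.

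The steroid and prostaglandin reductases of the AKR1C group were all lower in shJAM3. AKR1C3, which reduces ketosteroids to active androgens and oestrogens and makes prostaglandin F, was at 7.63 FPKM in shJAM3 (577 fragments) and 25.2 FPKM in shControl (1751 fragments). That is a ratio of 0.304 (0.276 to 0.334), a log2(FPKM + 1) ratio of -1.60. Only 13 measured protein-coding genes had a lower log2 ratio. Its place among them by level was 5281 in shJAM3 and 2032 in shControl.

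AKR1C1, which inactivates progesterone, was at 0.404 FPKM in shJAM3 (59 fragments) and 1.80 FPKM in shControl (242 fragments), a ratio of 0.225 (0.166 to 0.300). Its interval overlapped that of AKR1C3. Its log2(FPKM + 1) ratio was -0.99, just short of the 2-fold rule, because the added 1 outweighs so low a level. AKR1C2, which inactivates dihydrotestosterone, was at 0.677 FPKM in shJAM3 (73 fragments) and 1.35 in shControl (134 fragments). Its ratio of 0.502 (0.372 to 0.672) was nearer to 1 than that of AKR1C1, and the intervals did not overlap. Without the added 1, AKR1C1, AKR1C3 and SRXN1 had ratios of 0.5 or below, where 3.04% of measured protein-coding genes did. No member had a ratio of 2 or above, against 1.53% of those genes.

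The AKR1C genes are close paralogs, so how their fragments divide among them is uncertain. Of the distinct 100-base stretches in annotated AKR1C1 transcripts, 16.7% also occur in another gene, almost all in AKR1C2. For AKR1C2 the share was 23.1% and for AKR1C3 1.75%. At 50 bases the shares were 28.6%, 38.9% and 4.53%. Neither the read length nor the handling of reads that fit several genes is stated. Summed, the 3 genes held 709 fragments in shJAM3 and 2127 in shControl, a ratio of 0.307 (0.282 to 0.334). This sum does not depend on how counted fragments were divided among the 3 genes, but it would lack any that were left out for fitting several of them. AKR1C1 and AKR1C2 together, 132 fragments in shJAM3 and 376 in shControl, gave 0.323 (0.263 to 0.395).

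**Figure D2:**
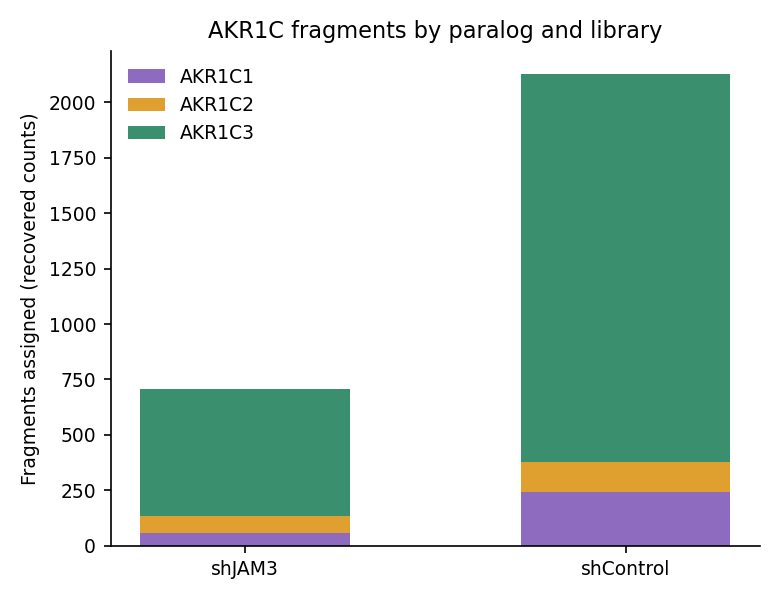
Fragments of AKR1C1, AKR1C2 and AKR1C3 stacked per library, shJAM3 left and shControl right, 1 library each. The total is 709 in shJAM3 and 2127 in shControl, and AKR1C3 makes up most of both bars.

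AKR1C3 took 81.4% (78.3 to 84.2, exact binomial) of the AKR1C fragments in shJAM3 and 82.3% (80.6 to 83.9) in shControl, intervals that overlap. AKR1C1 took 8.32% (6.39 to 10.6) in shJAM3 and 11.4% (10.1 to 12.8) in shControl. AKR1C2 took 10.3% (8.16 to 12.8) in shJAM3 and 6.30% (5.30 to 7.42) in shControl, which do not overlap. AKR1C2 thus held more fragments than AKR1C1 in shJAM3, where their intervals overlapped, and fewer in shControl, where they did not.

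FPKM divides by all annotated exon bases of a gene, and these differ widely in the cluster. On chromosome 10 of GRCh38, AKR1C1 (ENSG00000187134) spans 4963253 to 4983283 with 8765 exon bases, AKR1C2 (ENSG00000151632) 4987400 to 5018031 on the other strand with 6461, and AKR1C3 (ENSG00000196139) 5035354 to 5107686 with 4532. Their longest annotated transcripts have 6705, 3756 and 1807 bases. Levels per length therefore depend on which transcript was made, while the ratio between libraries uses the same length on both sides. None of the 3 shares exon bases with another annotated gene.

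The remaining aldo-keto reductases differed from each other. AKR1A1, aldehyde reductase, was at 56.9 FPKM in shJAM3 (2960 fragments) and 86.1 in shControl (4127), a ratio of 0.661 (0.630 to 0.693). AKR1B1, the aldose reductase that turns glucose into sorbitol, was at 50.6 FPKM in shJAM3 (3088 fragments) and 84.3 in shControl (4737), a ratio of 0.600 (0.574 to 0.628). Both are abundant, and both were lower in shJAM3 beyond counting error without reaching the 2-fold rule. Such intervals lay below 1 for 36.8% of measured protein-coding genes, so lying beyond counting error was common.

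AKR7A2, which reduces succinic semialdehyde, was at 30.6 FPKM in shJAM3 (910 fragments) and 32.6 in shControl (892), a ratio of 0.940 (0.856 to 1.03). Its interval includes 1. AKR1B10, a retinaldehyde reductase, had 1 fragment in each library, under the limit of 3 fragments, which corresponds to 0.103 FPKM in shJAM3 and 0.112 in shControl, so no ratio is given. The rest of the family was nearly silent. Of 10 further aldo-keto reductase genes, AKR1B15, AKR1D1 and AKR1C8P had no fragment, AKR1C4 had none in shJAM3 and 1 in shControl, and AKR1E2, AKR7A3, AKR7L, KCNAB1 and KCNAB3 stayed below 1 FPKM in both. KCNAB2, a potassium channel beta subunit of aldo-keto reductase fold, was the exception at 12.6 FPKM in shJAM3 and 12.9 in shControl, a ratio of 0.981 (0.921 to 1.05).

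The redox enzymes outside the family split. SRXN1, sulfiredoxin, which restores over-oxidised peroxiredoxins, was at 4.47 FPKM in shJAM3 (201 fragments) and 12.2 in shControl (505), a ratio of 0.367 (0.310 to 0.433). Its log2(FPKM + 1) ratio was -1.27, and 38 measured protein-coding genes lay lower. On chromosome 20 (646615 to 653370, minus strand, ENSG00000271303), 85.0% of its exon bases are also exons of AL121758.1 on the same strand, which was at 0.0442 FPKM in shJAM3 and 0.0240 in shControl. Position alone does not assign fragments of that stretch to either gene, and the way they were counted is not stated.

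TXNRD1, cytosolic thioredoxin reductase, was at 70.1 FPKM in shJAM3 (7847 fragments) and 63.5 in shControl (6540), a ratio of 1.11 (1.07 to 1.14). NQO1, which reduces quinones, was at 44.1 FPKM in shJAM3 (2393 fragments) and 36.2 in shControl (1808), a ratio of 1.22 (1.15 to 1.30). Both were higher in shJAM3 beyond counting error, as were 34.5% of measured protein-coding genes. NQO1 shares 17.7% of its exon bases with the antisense gene AC092115.2, which is listed at 0 in both libraries.

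**Figure D3:**
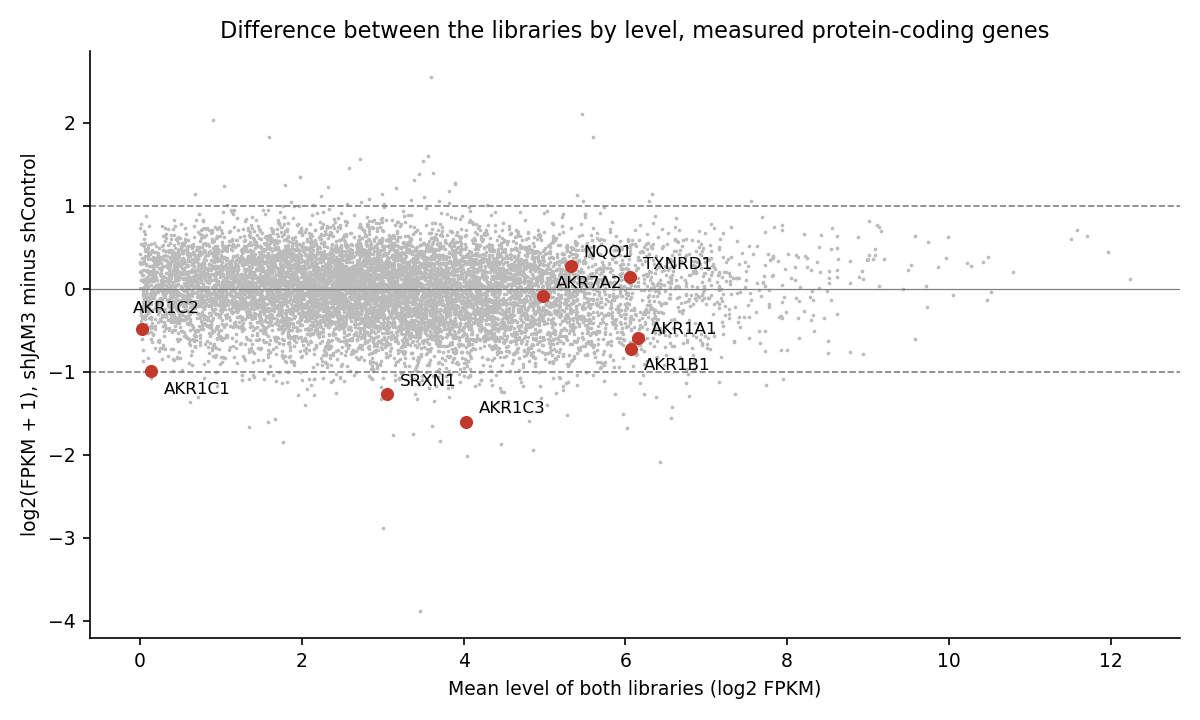
Difference in log2(FPKM + 1), shJAM3 minus shControl, against the mean level in log2 FPKM for 10496 measured protein-coding genes (grey) and the 9 measured members (red), with the 2-fold rule dashed. AKR1C3 (-1.60) and SRXN1 (-1.27) lie below the lower line, and NQO1 and TXNRD1 lie above 0.

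The order of levels differed between the libraries. In shJAM3 it ran TXNRD1, AKR1A1, AKR1B1, NQO1, AKR7A2, AKR1C3, SRXN1, AKR1C2, AKR1C1 and AKR1B10, with no neighbours overlapping in their counting intervals. In shControl it ran AKR1A1, AKR1B1, TXNRD1, NQO1, AKR7A2, AKR1C3, SRXN1, AKR1C1, AKR1C2 and AKR1B10. There the intervals of AKR1A1 and AKR1B1, of NQO1 and AKR7A2, and of AKR1C1 and AKR1C2 overlapped. TXNRD1 stood above AKR1A1 and AKR1B1 in shJAM3 and below both in shControl. These levels are per annotated exon base. The place of SRXN1 depends on how fragments of its 85.0% shared exon bases were counted. The order of AKR1C1 and AKR1C2 depends on their exon lengths, and in fragments their shJAM3 intervals overlapped. Among the 36 pairs of measured members, the intervals of the FPKM ratio between libraries overlapped in 5. These were AKR1C2 with AKR1A1, AKR1B1 and SRXN1, and AKR1C3 with AKR1C1 and SRXN1.

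The difference between the libraries followed the GC content of transcripts, so each member was also set against genes of similar GC. Across 20 bins of measured protein-coding genes, the median log2 ratio was 0.24 in the bin of lowest GC and -0.50 in the bin of highest GC. The AKR1C genes lie on the low-GC side, at 42.4% for AKR1C1, 40.2% for AKR1C2 and 41.2% for AKR1C3, where the bin medians were 0.13 to 0.19. Centring on the bin therefore placed them lower still, at -1.13, -0.68 and -1.79. AKR1C1, AKR1C3 and SRXN1 (-1.22) were then past the 2-fold rule, where 0.705% of measured protein-coding genes were, and no member was past it upward, against 0.324%.

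GC centring turned the sign of the members nearest to even. AKR7A2, at 61.1% GC, was at -0.09 before centring and 0.22 after it. TXNRD1, at 44.8% GC, was at 0.14 before and -0.02 after. NQO1 stayed above 0 at 0.15, and AKR1A1 (-0.43) and AKR1B1 (-0.68) stayed below. The part of GC in these differences was not tested beyond this centring.

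**Figure D4:**
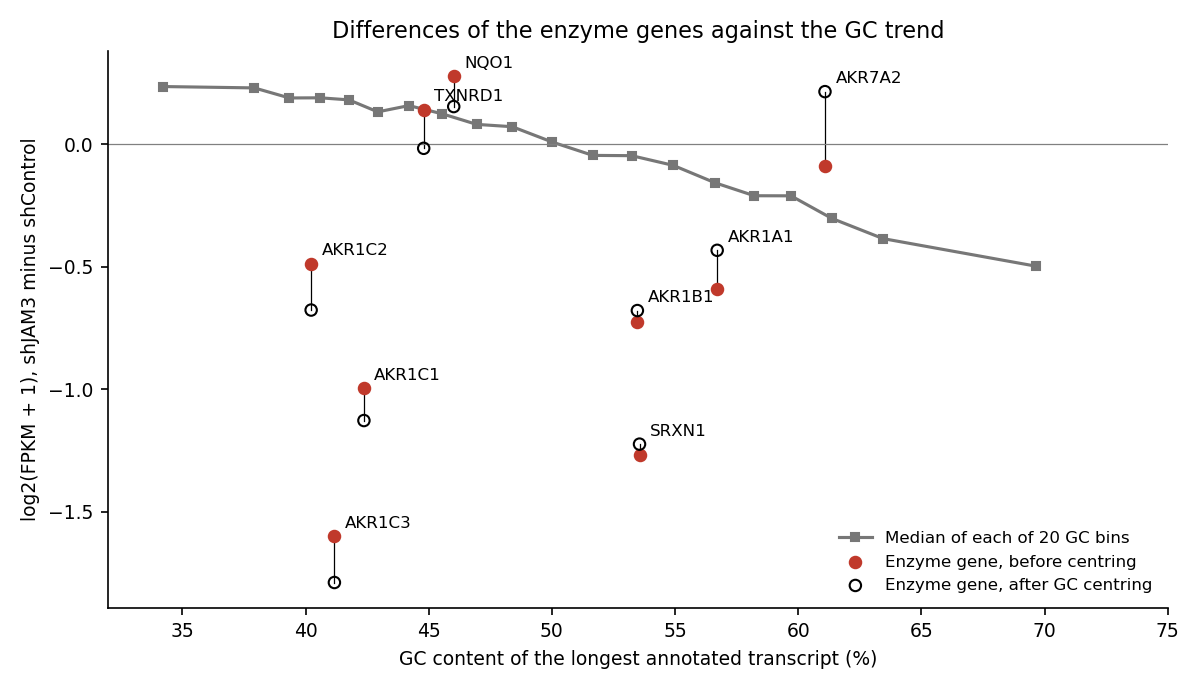
Difference in log2(FPKM + 1), shJAM3 minus shControl, against transcript GC content, with the median of each of 20 GC bins (grey line) and the 9 measured members before (red) and after (open) centring on their bin. AKR1C1, AKR1C2 and AKR1C3 move down with centring, and AKR7A2 and TXNRD1 cross 0.

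Lists of related genes follow, against a background of 50.6% of measured protein-coding genes below 0. No direction is read from a single list. Regulators of NRF2 were mixed. Of 11 measured, 7 were below 0 and 4 above, with a median of -0.08, and 1 was past the 2-fold rule. That gene was MAFG, a small MAF partner of NRF2, at 18.6 FPKM in shJAM3 and 43.1 in shControl, a ratio of 0.431 (0.406 to 0.458). MAFK, another small MAF, had a ratio of 0.659, MAFF 0.939 and the repressor BACH1 0.938. NFE2L2 was at 12.8 FPKM in shJAM3 and 11.3 in shControl, a ratio of 1.13 (1.04 to 1.23). KEAP1 was at 9.63 FPKM in shJAM3 and 12.6 in shControl, a ratio of 0.763 (0.684 to 0.851). NFE2L1, the NRF2 relative NRF1, had a ratio of 0.631 and the KEAP1-binding adaptor SQSTM1 0.700. The ligase subunits CUL3 and RBX1 had ratios of 1.03 and 1.27, and BTRC, which targets NRF2 apart from KEAP1, 1.88. These are transcript levels, and NRF2 protein or activity was not measured.

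Genes of glutathione synthesis and use went both ways, 9 below 0 and 8 above of 17 measured, with a median of -0.01, or 0.08 after GC centring. SLC7A11, the cystine importer, was at 11.2 FPKM in shJAM3 and 4.99 in shControl, a ratio of 2.24 (2.05 to 2.44). Its log2 ratio of 1.02 passed the 2-fold rule, and its GC-centred value of 0.79 did not. The glutamate-cysteine ligase subunits GCLC and GCLM had ratios of 0.743 and 0.787, and glutathione reductase, GSR, 0.801. GSTA4 (0.519), a glutathione transferase, was furthest below, and MGST1 (1.51) and GSTP1 (1.31) were above. Genes that supply NADPH, the cofactor of the members, were above 0 in 6 of 8 cases, with a median of 0.16 and none past the rule. IDH1 had a ratio of 1.33, MTHFD2 1.23, PGD 1.19 and IDH2 0.809.

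Thioredoxin partners were above 0 in 7 of 9 measured cases, with a median of 0.19. TXNIP, the thioredoxin inhibitor, had a ratio of 2.39 (2.05 to 2.79), past the rule at a log2 ratio of 1.08 and no longer past it at 0.93 after GC centring. The mitochondrial peroxiredoxin PRDX3 had a ratio of 1.63, PRDX6 1.25 and mitochondrial thioredoxin, TXN2, 0.763. Of 8 heme and iron genes 5 were above 0, with a median of 0.06. Ferritin light chain, FTL, had a ratio of 1.71, BLVRB 0.859, FECH 1.12 and FTH1 1.09. With GC centring the log2 ratio of FECH turned from 0.13 to -0.02, and that of BLVRB moved from -0.22 to -0.01. HMOX1, a heme oxygenase often used as an NRF2 readout, was at 11.5 FPKM in shJAM3 and 12.6 in shControl, a ratio of 0.919 (0.806 to 1.05). FTL has processed pseudogenes that can share its fragments.

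Among other enzymes of carbonyl and quinone reduction, 8 of 14 measured were below 0, with a median of -0.08 and none past the rule, or 1 (UGDH) after GC centring. EPHX1, microsomal epoxide hydrolase, was at 72.9 FPKM in shJAM3 and 143.5 in shControl, a ratio of 0.508 (0.486 to 0.531). UGDH, which makes UDP-glucuronate, had a ratio of 0.517 (0.488 to 0.548), and its log2 ratio was -0.93, or -1.12 after GC centring. OSGIN1, an oxidative stress response gene, had a ratio of 0.439 (0.354 to 0.542), with a log2 ratio of -0.92, or -0.53 after GC centring. ADH5, which also reduces S-nitrosoglutathione, lay on the other side at 1.62. ALDH1A1 had no fragment in either library.

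Enzymes that share steroid, prostaglandin or retinoid substrates with the AKR1C group were below 0 in 8 of 21 measured cases, with a median of 0.19. SRD5A1, a steroid reductase that makes dihydrotestosterone, was at 7.79 FPKM in shJAM3 and 15.6 in shControl, a ratio of 0.500 (0.463 to 0.541). Its log2 ratio was -0.91, or -1.05 after GC centring, past the rule. The cyclooxygenases PTGS1 and PTGS2, which start prostaglandin synthesis, had ratios of 0.592 (0.572 to 0.613) and 0.565 (0.499 to 0.639). Steroid sulfatase, STS, had a ratio of 1.75 (1.58 to 1.93). In the sugar and polyol route around AKR1B1, the sorbitol dehydrogenase SORD had a ratio of 1.27, glyoxalase GLO1 1.51, HAGH 0.619 and KHK 0.868. Over all 93 measured genes of the lists 42 were below 0, where 50.6% of measured protein-coding genes were. The 2-fold rule was passed downward by 1 (background 1.41%) and upward by 2 (background 0.391%). After GC centring 3 passed downward (MAFG at -1.01, UGDH and SRD5A1; background 0.705%) and none upward (background 0.324%). Centring also turned the sign of CUL3 (0.04 before, -0.19 after), MAFF (-0.07 before, 0.23 after), HMOX1 (-0.11 before, 0.10 after), KHK (-0.12 before, 0.09 after) and KCNAB2 (-0.03 before, 0.28 after). It brought MAFK (-0.59 before, -0.21 after), KEAP1 (-0.36 before, -0.15 after), NFE2L2 (0.17 before, 0.04 after), RBX1 (0.31 before, 0.18 after), MTHFD2 (0.29 before, 0.11 after) and TXN2 (-0.37 before, -0.22 after) nearer to 0. Further from 0 were then GSTP1 (0.38 before, 0.77 after), BACH1 (-0.08 before, -0.31 after), GCLC (-0.31 before, -0.46 after) and GCLM (-0.31 before, -0.54 after). These are examples. Of 40 measured list genes named by rule, centring moved 29 beyond their counting interval.

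**Figure D5:**
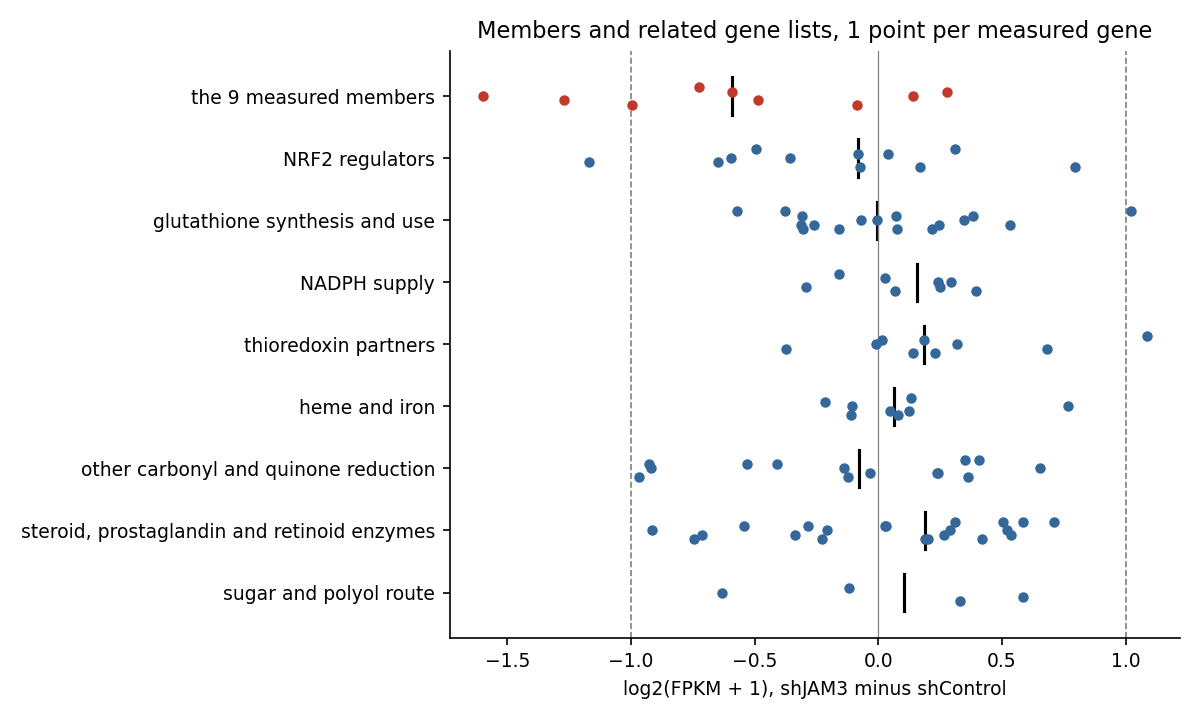
Difference in log2(FPKM + 1), shJAM3 minus shControl, for the 9 measured members (red) and the measured genes of 8 related lists (blue), with each median as a black bar and the 2-fold rule dashed. MAFG lies past the lower line, and SLC7A11 and TXNIP past the upper one, a position that neither held after GC centring (0.79 and 0.93).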

How the data were processed

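The authors deposited 1 table of FPKM per gene for 2 poly(A)-selected A2780 libraries. Per the submitters' processing notes, HISAT2 2.0.5 and featureCounts 1.5.0-p3 were among the tools, with no role, settings or order. All 58735 gene identifiers, positions, symbols and exon lengths matched GENCODE 29 (GRCh38). In each library, the product of FPKM and exon length came out whole when divided by the value of 1 fragment, for 100% of values above 0 (tolerance 0.001 fragments), which gave fragment numbers. Where a symbol had several rows, the most abundant was kept, leaving 57169.

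The measure was log2(FPKM + 1), shJAM3 minus shControl, which understates differences of low genes. Genes averaging 1 FPKM or more (12214) counted as measured. As each group had 1 library there was no test, and a 2-fold size rule stood in its place. Ratios without the added 1 carry exact conditional binomial 95% intervals. GC content came from each gene's longest GENCODE transcript, with 20 bins of 10496 measured protein-coding genes. Promoters came from RefSeq GRCh38.p14 and matched 9 of 10 members. The size rule and intervals were tested on simulated counts that held counting error only. Variation between libraries, PCR copies and the GC trend were not simulated, so the rule was not checked against them. The members, lists and naming rule were chosen with earlier results of these data known. The rule named all members, all NRF2 regulators and family genes, and up to 4 genes of each other list by absolute log2 ratio. GCLC, GCLM, GSR, HMOX1 and ALDH1A1 fall outside it and were named after their values were seen. Alternatives were other pseudocounts, scalings, filters, fold rules and GC centring. Python 3.11.15, NumPy 2.4.6, pandas 2.3.3 and SciPy 1.17.1 were used.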

Additional observations from a re-analysis of the deposited data

How the results depend on the processing

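With 1 library per group, no replicate could be left out. No paired analysis was possible because each group has 1 library. No member that was past the 2-fold rule changed sign under any alternative run. The number of members at least 2-fold lower was 2, where 257 of all 12214 measured genes were. It was 3 with a pseudocount of 0.1 FPKM (477 of all measured genes) and with GC centring (177 of them). Without a pseudocount it was also 3, where 3.04% of measured protein-coding genes were. The member added in each case was AKR1C1, which passed the filter only through shControl. At a mean of at least 5 FPKM, which leaves out AKR1C1 and AKR1C2, the number was 2, where 141 of all genes at that mean were. Without a pseudocount and GC-centred it was 4, namely AKR1C1 (-2.32), AKR1C2 (-1.22), AKR1C3 (-1.95) and SRXN1 (-1.39). Of these, AKR1C1 and AKR1C2 passed the filter only through shControl. No count over all genes was made in that setting, so the 4 has no background and nothing is read from it. With a 1.5-fold rule the number was 5, against 1200 of all measured genes. No member was at least 2-fold higher under any setting. The median log2 ratio of the measured members was -0.59, and -0.73 with a pseudocount of 0.1 FPKM, -0.74 without a pseudocount and -0.68 with GC centring, whether or not 1 was added. The summed AKR1C log2 ratio was -1.70, and -1.92 after GC centring.

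Of all 12214 measured genes, 257 were at least 2-fold lower and 159 higher. These counts were 477 and 361 with a pseudocount of 0.1 FPKM, 141 and 52 at a mean of at least 5 FPKM, 1200 and 869 with a 1.5-fold rule, and 148 and 41 for protein-coding genes only. With no filter on low values 254 were higher. AKR1C1 had the widest range of the members, from -2.32 to -0.98, since it lies near 1 FPKM. The settings without a pseudocount were chosen after seeing the data. Depth limits AKR1B10, with 1 fragment in each library, and JAM3.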

Other observations

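Little else was transcribed around the AKR1C cluster. Of 15 other annotated genes within 300 kb none reached a mean of 1 FPKM, and the highest was AKR1E2, with 19 fragments in shJAM3 and 29 in shControl. Around all 7 member loci, 50 neighbouring genes were measured, of which 25 were below 0 on the log2 scale. Downward the 2-fold rule was passed by 3 of them, where 2.1% of all measured genes passed it, and upward by 1, where 1.3% did. SLC52A3, a riboflavin transporter 106710 bases from SRXN1, had 145 fragments in shJAM3 and 368 in shControl, a ratio of 0.363. Its log2 ratio of -1.15 passed the rule, and its GC-centred value of -0.94 did not. The lincRNA AC009275.1, 9897 bases from AKR1B1, had 19 fragments in shJAM3 and 60 in shControl, a ratio of 0.292. At 0.945 FPKM in shJAM3 and 3.24 in shControl, it passed the filter only through shControl. The others rest on few fragments, with AL355480.1 at 0 in shJAM3 and 7 in shControl, and AL035413.2 at 26 in shJAM3 and 5 in shControl. AL355480.1 passed the filter only through shControl and AL035413.2 only through shJAM3. The differences of AC009275.1, AL355480.1 and AL035413.2 are thus partly built into the filter. They stayed past the rule after GC centring. PRDX1, a peroxiredoxin gene 27496 bases from AKR1A1, had a ratio of 1.10.

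By distance in the plane of log2(FPKM + 1) in both libraries, the measured protein-coding genes nearest to AKR1C3 were CBARP (distance 0.28), SYT12 (0.31) and GLIS2 (0.33). Those nearest to AKR1C1 were GRIN3B (0.04), CLDN9 (0.06) and GAL3ST2 (0.10), and those nearest to AKR1C2 were AC126755.2 (0.02), ACTL9 (0.05) and NCKAP5 (0.06). With 2 libraries this likeness rests on 2 values per gene.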
